A study of Mus musculus with 10 samples.

Results

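The genes described here are the aryl hydrocarbon receptor Ahr, its partner Arnt, the repressor Ahrr, the enzyme Tiparp and the cytochrome P450 genes Cyp1a1, Cyp1a2 and Cyp1b1. They were picked by name from the array annotation with earlier results of these data known, so they are not a blind choice, and make up 7 of the 27670 genes on the array, with 12 probes.

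The aryl hydrocarbon receptor waits in the cytosol in a complex with heat shock protein 90 and, once it binds planar aromatic compounds such as the polycyclic hydrocarbons of tobacco smoke, moves to the nucleus and pairs with ARNT. The pair binds DNA at xenobiotic response elements and switches on the Cyp1 genes, whose enzymes oxidize these compounds, and also its own repressors, AHRR and TIPARP. In the lung, Cyp1a1 and Cyp1b1 are known as genes that inhaled aromatic hydrocarbons induce, while Cyp1a2 is mainly a liver enzyme.

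The lungs came from female BALB/c mice, an inbred strain, that had breathed either room air or cigarette smoke for 8 weeks, with 5 lungs per group and 1 array per lung. The mice were 6 to 8 weeks old on arrival, and smoke was given to the whole body from 12 unfiltered research cigarettes, 2 times a day for 50 minutes, 5 days a week. The question asked of these genes is how their RNA differs between smoke-exposed and room air lungs. The 10 arrays were Agilent mouse arrays read in 2 colours, and the share of spots well above background in red ran from 64.9 to 77.5%.

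The labels name a single dye, and which RNA each colour carried was read from the files. Ddx3y, Eif2s3y and Kdm5d, genes of the Y chromosome, were well above background in green on 10 of 10 arrays and in red on 2, 0 and 1 of them. The lung genes Sftpc, Scgb1a1 and Ager were brighter in red, at a log2 signal of 21.89, 20.29 and 16.45, than in green, at 15.50, 13.57 and 11.62. Red was therefore read as the lung and green as a reference that holds male RNA, and a level is given below as the log2 ratio of lung over reference. A difference is the mean of the smoke arrays minus the mean of the room air arrays.

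The direction of every difference rests on which arrays are the smoke arrays, and the deposited files conflict on this. In the table of log2 values that the authors deposited, all 286449 values equal, within 0.0001, those of the scanner file with the same number in the other group, while 286 equal those of the file of the same name. The groups below follow the assignment of the scanner files to the labelled samples. If the columns of the table are named correctly instead, every sign and every "higher" or "lower" below is reversed, and the deposited files alone did not settle which holds. The paper reports Ahrr and Cyp1b1 as raised by smoke in the mouse lung, the direction found with the groups used here. Its mouse analysis used the authors' own naming of the groups, so it is no separate check. The paper also reports both genes as higher in lungs of current than of never smokers. That human cohort is another species and does not rest on the naming of these arrays. Each of 5 slides held the smoke and the room air array of 1 replicate number, with smoke in place 1 and room air in place 2, so group and place on the slide cannot be told apart.

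Of the 7 genes, Cyp1b1 and Ahrr were higher in smoke-exposed lungs, 8.37-fold and 3.89-fold, and passed the threshold of an adjusted p of 0.05 in the limma fit over all probes. The other 5 did not pass it, and 1 of those, Cyp1a2, was not well above background. In all, 1366 of 27669 genes tested were called higher (4.94%) and 906 lower (3.27%), with the brightest probe standing for a gene. Of the 41173 probes tested, 2908 were called, 1794 higher and 1114 lower (61.7% higher), while 687 of 1434 (47.9%) were higher with median centring in place of loess. With the replicate number as a block, 5025 probes were called, 2797 of them higher.

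**Figure D1:**
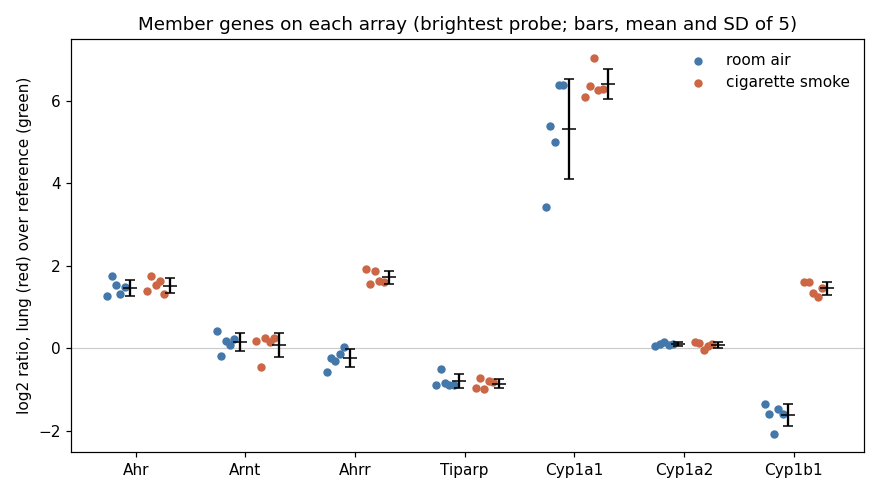
Log2 ratio of lung over reference on each array (vertical axis) for the brightest probe of each gene (horizontal axis), in room air (blue) and cigarette smoke (red), with mean and SD of 5 arrays. The groups separate at Ahrr and Cyp1b1 and overlap at the others, and Cyp1a1 spreads from 3.42 to 6.38 among the room air lungs.

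The receptor Ahr was measured by a probe at chr12:33345024-33345083 on the minus strand of build mm7, printed in 10 spots per array. Its log2 ratio was 1.27, 1.76, 1.54, 1.32 and 1.48 in room air lungs 1 to 5 and 1.38, 1.75, 1.53, 1.63 and 1.32 in smoke-exposed lungs 1 to 5. Lung 2 was the highest in each group, and the groups overlapped over nearly their whole range. The means were 1.47 ± 0.19 and 1.52 ± 0.17 (SD, n = 5), a difference of 0.049 with a 95% interval of -0.18 to 0.28 (limma adjusted p = 0.897).

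Arnt, the partner that the receptor needs to bind DNA, had 4 probes on chromosome 3, and at each of them the groups overlapped. At the brightest, A_52_P324866, the log2 ratio was 0.42, -0.18, 0.19, 0.08 and 0.24 in room air and 0.19, -0.44, 0.24, 0.14 and 0.25 in smoke. Lung 2 was the lowest in each group. The difference was -0.073 (95% interval -0.39 to 0.24, limma adjusted p = 0.888), and at the other 3 probes it was 0.022, 0.11 and -0.18, with adjusted p of 0.898, 0.320 and 0.314. At the probe with 0.11, A_51_P494196, the smoke array was higher on 5 of 5 slides. No difference in response between the brightest probe of Arnt and the others passed the threshold (exact permutation test, two-sided, lowest adjusted p = 0.675).

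Ahrr encodes a protein that resembles the receptor, competes with it for ARNT and represses its targets. The 250 bases before its start are shown because they hold 3 copies of GCGTG, the core of the xenobiotic response element, more than in the other 5 members with a promoter entry. They lie at chr13:74292332-74292581 on the minus strand of GRCm38.p6 in the RefSeq annotation and read 5′ to 3′, with the core or its reverse complement CACGC in capitals here and in the sequences further on.
Ahrr: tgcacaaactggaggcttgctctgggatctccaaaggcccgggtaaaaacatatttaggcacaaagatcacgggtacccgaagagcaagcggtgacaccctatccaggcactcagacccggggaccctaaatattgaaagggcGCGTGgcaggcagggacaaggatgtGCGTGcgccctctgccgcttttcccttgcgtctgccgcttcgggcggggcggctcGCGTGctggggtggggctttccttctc

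In room air the log2 ratio of Ahrr was -0.56, -0.23, -0.30, -0.14 and 0.03, and in smoke it was 1.92, 1.56, 1.88, 1.63 and 1.61. Every smoke-exposed lung was above every room air lung, with a gap wider than the spread within either group, whereas 7.84% of all genes tested had groups that did not overlap in either direction. The difference was 1.96 ± 0.11 (SE, n = 5 per group), a fold of 3.89 (95% interval 3.29 to 4.60, limma adjusted p = 1.77e-06). Within the slides it was 1.58 to 2.49, higher in smoke on 5 of 5. The background correction adds an offset of 50 to both channels, which shrinks the fold of dim spots, and the red processed signal alone gave 9.90-fold (limma adjusted p = 0.000239). Red with quantile normalization gave a log2 difference of 2.08 (limma adjusted p = 1.24e-06). The scanner software's log ratio gave a log2 difference of 3.17. Among the signed differences of 27669 genes, Ahrr stood at place 33 from the highest, and with the groups exchanged it would stand there from the lowest.

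Tiparp, a mono-ADP-ribosyltransferase of the PARP family that modifies the receptor and is a classical target of it, did not pass the test. Its log2 ratio was -0.89, -0.50, -0.84, -0.89 and -0.88 in room air and -0.97, -0.72, -0.98, -0.79 and -0.82 in smoke. Room air lung 2 stood above the other 9 arrays, and the rest overlapped. The difference was -0.057 (95% interval -0.24 to 0.13, limma adjusted p = 0.838). The rise of Ahrr exceeded the difference at the receptor by 1.91 on the log2 scale (exact permutation test, two-sided, adjusted p = 0.0198 over 5 pairs of genes), and by 1.47 to 2.37 within the slides. The gap of Tiparp to Ahr was -0.11 and did not pass (adjusted p = 0.214, exact permutation), with -0.21 to 0.21 within the slides. With 5 against 5 arrays the smallest p such a test can give is 0.00794 before adjustment.

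**Figure D2:**
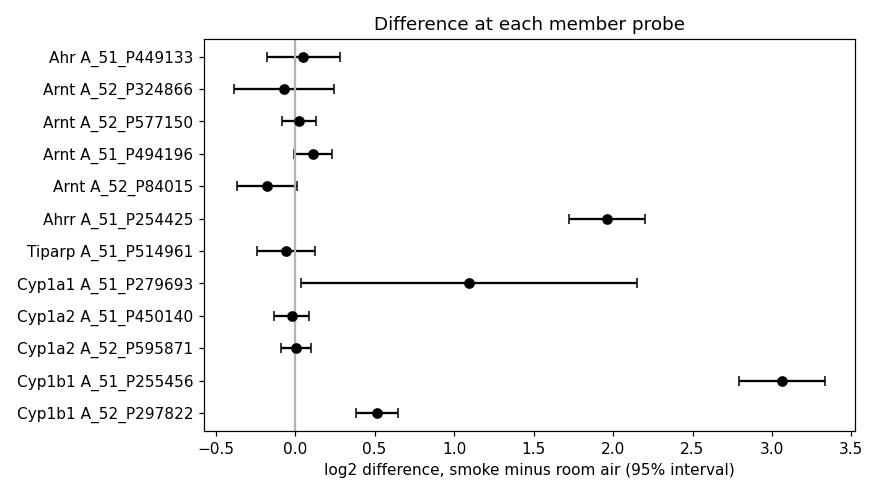
Difference between smoke and room air (horizontal axis, log2) at each of the 12 probes (vertical axis), with 95% intervals from limma. Both probes of Cyp1b1 and the probe of Ahrr lie above 0, the interval of Cyp1a1 runs from 0.036 to 2.15, and those of the other 8 probes include 0.

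Cyp1b1 encodes an oxidase that activates aromatic hydrocarbons and is expressed outside the liver. The bases before its start are given beside those of Cyp1a1 because the 2 genes are the receptor's best-known lung targets. The stretch of Cyp1b1 lies at chr17:79715062-79715311 on the minus strand and that of Cyp1a1 at chr9:57697363-57697612 on the plus strand of GRCm38.p6, and each holds 1 copy of the core.
Cyp1b1: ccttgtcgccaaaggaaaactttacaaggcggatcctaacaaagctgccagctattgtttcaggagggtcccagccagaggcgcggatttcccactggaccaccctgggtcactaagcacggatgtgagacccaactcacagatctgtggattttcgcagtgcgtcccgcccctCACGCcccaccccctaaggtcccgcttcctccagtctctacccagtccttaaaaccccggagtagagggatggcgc
Cyp1a1: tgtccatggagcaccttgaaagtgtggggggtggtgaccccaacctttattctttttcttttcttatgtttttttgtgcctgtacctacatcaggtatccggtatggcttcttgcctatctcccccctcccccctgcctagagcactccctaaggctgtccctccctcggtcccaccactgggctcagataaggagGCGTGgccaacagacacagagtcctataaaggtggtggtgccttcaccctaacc

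At the brighter probe of Cyp1b1, A_51_P255456 (chr17:78002920-78002979, minus strand, mm7), the log2 ratio was -1.36, -1.59, -2.07, -1.46 and -1.58 in room air and 1.61, 1.60, 1.35, 1.25 and 1.45 in smoke. All 5 smoke-exposed lungs were above the reference and all 5 room air lungs below it. The difference was 3.06 ± 0.12 (SE, n = 5 per group), a fold of 8.37 (95% interval 6.94 to 10.1, limma adjusted p = 1.08e-07) and stood at place 5 from the highest of 27669 signed differences, or from the lowest with the groups exchanged. The slides gave 2.72 to 3.42, higher in smoke on 5 of 5. The red processed signal alone gave 12.2-fold, and red with quantile normalization a log2 difference of 3.17.

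The dimmer probe of Cyp1b1, A_52_P297822, was well above background in red on 0 of 5 room air arrays and 5 of 5 smoke arrays. Its room air level is therefore only a bound, and red was at least 1.49-fold higher in smoke. Such a bound is taken in red alone after loess and quantile scaling and is open to dye bias, since no dyes were swapped. It also holds the offset of the background correction, which shrinks the fold of dim spots. The red processed signal alone gave 15.1-fold at this probe (limma adjusted p = 1.82e-05) and 12.2-fold at the brighter one. The 15.1-fold rests on room air values not well above background, so it is not a measured size. The fitted log2 ratio, a different scale, passed the threshold (limma adjusted p = 0.000345). Its size is not given, since the room air level is only a bound. A permutation test of the gap between the probes was run but is not read, since 1 side is a bound. The mean of the log2 ratios of both probes, which includes the bound, gave 1.79.

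Cyp1a1, the most inducible oxidase of the family, had a log2 ratio of 3.42, 5.40, 5.01, 6.37 and 6.38 in room air and 6.10, 6.37, 7.05, 6.26 and 6.28 in smoke. The room air lungs differed widely, with lung 1 lowest and lungs 4 and 5 as high as most smoke-exposed lungs, and smoke lung 3 was the highest of the 10. The difference was 1.09 ± 0.48 (SE), a fold of 2.14 with a 95% interval of 1.03 to 4.45, and it missed the threshold (limma adjusted p = 0.254). On slides 1 to 5 it was 2.68, 0.97, 2.03, -0.12 and -0.10, higher in smoke on 3 of 5. Without room air lung 1 it was 0.62 (adjusted p = 0.283).

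The RNA of the lung itself showed the same spread at Cyp1a1. The red processed signal was 2536, 13229, 8159, 38438 and 27018 in room air and 23341, 26523, 41388, 38789 and 22557 in smoke, saturated on 0 arrays. The green reference was dim, at most 127 on all 10 arrays, and well above background on 3 of 5 room air and 5 of 5 smoke arrays. The difference in green was 1.04 ± 0.44 (SE) on the log2 scale and did not pass the threshold (limma adjusted p = 1.00). The scanner software's own log ratio gave a difference of 0.35 and red alone 1.38, neither past the threshold. On room air array 1, where Cyp1a1 was lowest, the summed level of the 4 measured neutrophil marker genes, with S100a9 the brightest, was 180.3 times the 75th percentile of red, against 27.2 to 45.5 on the other room air arrays and 45.7 to 85.0 on the smoke arrays. The part of these cells in the Cyp1a1 value was not tested.

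Cyp1a2, next to Cyp1a1 on chromosome 9, was not well above background. Its brighter probe was above background in red on 1 of 5 room air arrays and 0 of 5 smoke arrays, and the other probe on 0 of 10, so no fold is given.

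**Figure D3:**
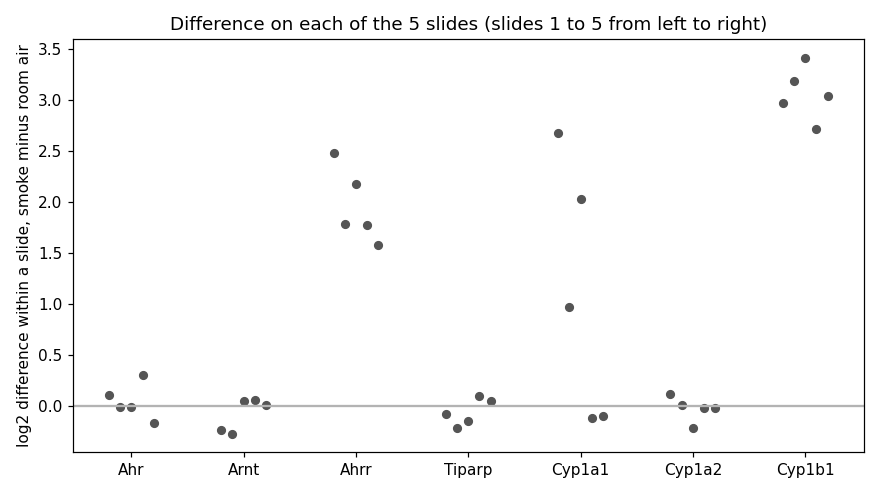
Difference between the smoke and room air array of a slide (vertical axis, log2) for the brightest probe of each gene, with the 5 slides from left to right. Cyp1b1 (2.72 to 3.42) and Ahrr (1.58 to 2.49) are above 0 on every slide, and Cyp1a1 runs from -0.12 to 2.68.

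The difference between smoke and room air at Cyp1b1 exceeded that at Cyp1a1 by 1.97 on the log2 scale, with a 95% interval of 0.57 to 3.37, and did not pass the threshold over the 5 pairs (exact permutation test, two-sided, adjusted p = 0.0529). Without room air lung 1 the gap was 2.51 and passed it (exact permutation adjusted p = 0.0132). On slides 1 to 5 the gap was 0.29, 2.21, 1.38, 2.83 and 3.14, above 0 on 5 of 5, and the permutations did not take the slides into account. The 2 pairs with Cyp1a2 are not read, since Cyp1a2 was not well above background, but they count among the 5 of the adjustment. Before adjustment the gap between Cyp1b1 and Cyp1a1 had p = 0.0317 (exact permutation test, two-sided).

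A promoter window of 300 bases, 250 before and 50 after the start, was found in RefSeq for 6 of the 7 genes, all but Ahr. GCGTG on either strand was present in 5 of these 6, all but Cyp1a2, and in 32.4% of all 32851 windows. The longer TNGCGTG, which contains GCGTG, was present in 1 of the 6, Ahrr, and in 5.07% of all windows. Tiparp and Arnt, which did not pass the threshold, also held 1 core each. Such a match describes the letters only.

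Genes known to be regulated with the Cyp1 genes were then described by lists. The classical battery outside the Cyp1 family, phase 2 enzymes and an aldehyde dehydrogenase, had 5 of its 6 genes measured, and all 5 were called higher, with a median difference of 1.08 against -0.00405 over all genes. Nqo1, a quinone reductase, rose 4.23-fold (95% interval 3.67 to 4.86, limma adjusted p = 2.50e-07). The aldehyde dehydrogenase Aldh3a1 rose 2.45-fold, the glucuronosyltransferase Ugt1a6b 2.11-fold and the glutathione transferases Gsta1 and Gsta2 1.97-fold and 1.79-fold. At each of the 5 the groups did not overlap. Over all genes tested, 4.94% were called higher and 7.84% did not overlap in either direction. At Aldh3a1 the log2 difference of 1.29 came to 2.98 in red processed signal alone and 2.79 with the scanner software's log ratio. In red with quantile normalization it was 1.43, and each of these passed the threshold. Several of these genes are also known to respond to oxidative stress through Nfe2l2, and its part in these results was not tested.

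**Figure D4:**
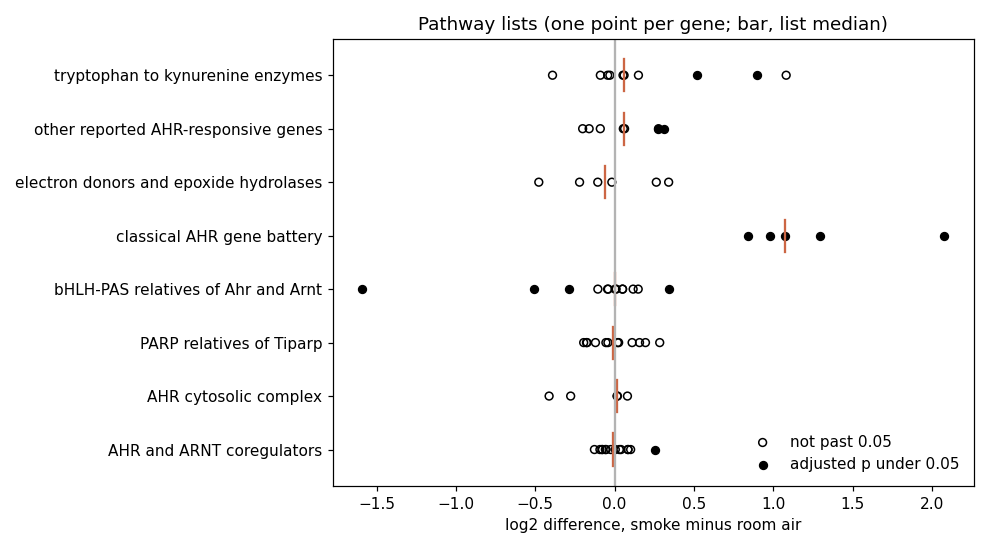
Difference between smoke and room air (horizontal axis, log2) of each measured gene in 8 lists (vertical axis), filled where the adjusted p is under 0.05, with the list median as a bar. The classical battery lies between 0.84 and 2.08, and the medians of the other 7 lists lie between -0.062 and 0.058.

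Of 8 other genes reported to respond to the receptor, 2 were called higher, Nfe2l2 (0.27, limma adjusted p = 0.0211) and the amino acid transporter Slc7a5 (0.31, limma adjusted p = 0.0375), and 0 lower, with a median of 0.058. The cytosolic partners had 0 of 5 genes called, with a median of 0.015. The largest difference there was at Hsp90ab1, the chaperone that holds the receptor (-0.41, limma adjusted p = 0.113), which passed the threshold with the replicate number as a block (adjusted p = 0.0308) and without room air lung 1 (-0.49, adjusted p = 0.0388). Of 14 coregulators, 1 was called, the coactivator Ncoa3 (0.26, limma adjusted p = 0.0121). These counts, and those of the pathway lists that follow, stand beside 4.94% of all genes tested called higher and 3.27% lower. The 1 call among the coregulators is near that share. The calls of Slc7a5, Nfe2l2 and Ncoa3 were lost under 16, 10 and 5 of 21 alternatives, besides the deposited table, where they turned sign.

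Among 13 bHLH-PAS relatives, transcription factors built like Ahr and Arnt, 3 were called lower and 1 higher, with a median of 0.0034. Of the 13, 7 were well above background in red on at least 5 arrays. The median is the value of Npas1, well above background in red on 1 room air and 0 smoke arrays. The clock factor Bmal1 was lower by the most, with a difference of -1.59 (95% interval -2.12 to -1.06, limma adjusted p = 0.00211). Clock, its partner, fell by 0.51. Its call was lost in red processed signal alone (-0.58, limma adjusted p = 0.0620) and kept in red with quantile normalization (-0.51, limma adjusted p = 0.0483). Npas2, a relative of Clock, was called lower, but it was well above background in red on 5 of 5 room air and 1 of 5 smoke arrays, so no size is given, and it lost its call under 4 of 20 alternatives. Arnt2, a close relative of Arnt, was well above background in red on 0 of 5 room air arrays, and red was at least 1.36-fold higher in smoke. This bound also holds the offset of the background correction, which shrinks the fold of dim spots. Red processed signal alone gave a log2 difference of 2.82 (limma adjusted p = 0.00164), which rests on room air values not well above background. The fitted log2 ratio passed the threshold (limma adjusted p = 0.00950), and its size is not given, since the room air level is only a bound. Clock, Npas2, Arnt2, Nfe2l2 and Ido2 were named after their values were seen.

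Metabolites of tryptophan along the kynurenine route are ligands of the receptor, and 2 of 10 measured enzymes of that route were called higher and 0 lower, with a median of 0.056. Kynu, which cleaves kynurenine, rose 1.87-fold (95% interval 1.55 to 2.24, limma adjusted p = 0.000986). Green was well above background for Kynu on 0 of 5 room air and 1 of 5 smoke arrays. On the log2 scale, red processed signal alone gave 2.13 (limma adjusted p = 0.000217) and red with quantile normalization 1.09 (limma adjusted p = 0.000267). The scanner software's log ratio gave 1.47 and lost the call (limma adjusted p = 0.109). Ido2, a tryptophan-opening enzyme, rose by 0.52 (limma adjusted p = 0.00166), and by 1.24 in red alone. The electron donors and epoxide hydrolases that work with CYP1 enzymes had 0 of 6 genes called and a median of -0.062. Ephx2, an epoxide hydrolase, had the largest difference among them (-0.48, limma adjusted p = 0.154), and it passed the threshold with the replicate number as a block (adjusted p = 0.00740), in red processed signal alone (adjusted p = 0.0373) and in red with quantile normalization (adjusted p = 0.0172). The relatives of Tiparp had 0 of 12 measured genes called and a median of -0.012, with the largest difference at Parp16 (0.28, limma adjusted p = 0.0677), which passed without room air lung 5 (0.34, adjusted p = 0.0302).

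Whole lung RNA mixes many cells, so more cells of a type and more RNA per cell cannot be told apart, and marker lists are given beside these results. Of 7 alveolar macrophage markers, 3 were called higher and 0 lower, namely Marco, Chil3 and Mrc1, with log2 differences of 2.60, 2.12 and 1.14. Green was well above background for Mrc1 on 1 of 5 arrays in each group, and the scanner software's log ratio gave 0.91 and lost its call (adjusted p = 0.121). The other 4 did not pass, at -0.25 for Fabp4, -0.094 for Car4, 0.012 for Ear1 and 0.25 for Siglecf, and the list median was 0.25. In red alone Marco gave 3.67. The summed red level of the list, led by Chil3, was 60.4, 58.2, 59.7, 56.0 and 56.9 times the 75th percentile in room air lungs 1 to 5 and 181.9, 191.3, 180.1, 161.9 and 203.9 in smoke-exposed lungs 1 to 5. Each smoke-exposed lung was above each room air lung, as for Cyp1b1 and Ahrr. Of 5 macrophage and monocyte markers, Cd68, Adgre1 and Csf1r were called higher, with log2 differences of 2.06, 1.39 and 0.58, and Csf1r lost its call under 4 of 21 alternatives. Lyz2 (0.18) and Ccr2 (0.42) did not pass. Among all genes tested, 4.94% were called higher. The summed level of the list, led by Lyz2, was 605.1, 785.5, 571.0, 625.8 and 801.0 in room air and 708.9, 1076.8, 780.0, 531.6 and 1069.3 in smoke, which overlap.

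Other lists moved less or the other way. Of 5 fibroblast markers, 3 were called lower, Pdgfra (-0.49), Dcn (-0.49) and Tcf21 (-0.35), and 2 did not pass, Col1a1 (0.25) and Col1a2 (0.069). Their summed level, led by Col1a2, was 67.9 to 105.4 in room air and 75.3 to 100.7 in smoke, which overlap. Markers of alveolar type 1 cells, endothelial cells, smooth muscle and cardiac muscle were called lower in 1 of 6, 1 of 7, 1 of 4 and 1 of 5. The genes called were Cav1, Pecam1, Acta2 and Tnnt2, with limma adjusted p of 0.00111, 0.0488, 0.00900 and 0.0493. The list medians were -0.11, -0.12, -0.33 and -0.39. Among all genes tested, 3.27% were called lower. The summed level of the endothelial list, led by Cldn5, was 148.5 to 192.4 in room air and 101.8 to 123.3 in smoke, and that of the type 1 list, led by Cav1, 322.7 to 399.1 and 244.3 to 298.9. Cav1 itself differed by -0.64. The other type 1 markers did not pass, at 0.028 for Ager, 0.077 for Pdpn, -0.060 for Hopx, -0.23 for Aqp5 and -0.16 for Rtkn2. The smooth muscle list, led by Acta2, summed to 95.3 to 118.4 and 76.5 to 97.5, and the cardiac list, led by Myl7, to 76.9 to 118.9 and 52.8 to 78.1. Both overlap between the groups, but within every slide the smoke array was the lower of the pair for both lists. In alveolar type 2, club, ciliated, neutrophil, T cell, B cell and hepatocyte lists 0 genes were called. The part of these cell types in the results for Cyp1b1, Ahrr and the classical battery was not tested.

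The genes whose log2 ratio ran most like each member over the 10 arrays were sought among 13915 genes well above background in red on all of them, as a description with no test. For Ahrr they were Nqo1 (r = 0.992), Nuf2 (0.990) and Pnpla7 (0.989), and for Cyp1b1 they were Lpxn (0.995), Trem2 (0.995) and Spp1 (0.994). Each of these 6 differed between the groups, and with groups that do not overlap such a value of r mostly restates that difference. For Cyp1a1 they were Ctnnbip1 (r = 0.980), Akr1b3 (0.955) and Borcs8 (0.943), none of which passed the threshold. In deviations from the group means, Ctnnbip1 again came first for Cyp1a1 (r = 0.979), before Rcn3 (0.942) and Wbp1 (0.941). For Ahr they were Vps9d1, Slc4a2 and Mta3, with r from 0.910 to 0.945. For Arnt they were Serbp1, Dnajc7 and Ltbr, with r from 0.955 to 0.984, and the value for Dnajc7 came to 0.642 without the 2 arrays farthest from the median. For Tiparp the values for Arhgap33, Rev3l and Nup153, 0.933, 0.900 and 0.889, rested on 2 such arrays and came to 0.711, 0.559 and 0.263 without them.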

How the data were processed

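The authors deposited the scanner output of 10 arrays, in which red and green spot and background intensity are given for each spot, and per the file headers the log ratio of the scanner software is log10. A further table by the authors holds log2 values, the mean over both channels without centring, whose columns carry the scanner values of the other group. Groups and replicate numbers were taken from the labels. The design had foreseen 1 or 2 colours, and the files hold 2.

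Background was corrected with normexp (offset 50) over all spots, ratios were normalized by loess with control spots at weight 0, outlier spots were left out and spots of a probe averaged. Groups were compared with limma 3.58.1 in R 4.3.3 (lmFit and eBayes, two-sided), with Benjamini-Hochberg adjustment over 41173 probes and a threshold of 0.05. Probes were named by accession (22951), current symbol (6659), synonym (3109) or the file's name (8455). The number of arrays limits the precision.

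The members and lists were chosen with earlier results of these data known. Named are the 7 genes with all probes, genes of a pathway list called with a fold over 1.5 or otherwise the largest difference in a list with none, the 3 genes most like each member, and marker genes. Arrays of the same replicate number share a slide. For numbers 2 to 5 they deviated together (correlations 0.415 to 0.550 across probes, against a highest of 0.205 between different numbers). For number 1 the correlation was 0.157, below that highest value. The number was therefore also fitted as a block. Of 22 alternatives, 1, the deposited table with its columns as named, was chosen after seeing the data. The others changed the background correction, normalization, channel, test, filter on dim probes, treatment of several probes and the block, or left out 1 array.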

Additional observations from a re-analysis of the deposited data

Results flagged for a closer look

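In 6 of 70 groups of 5 arrays examined, 1 array stood apart from the other 4 by more than 0.71 of the group's whole range. Chance gives this in about 1 in 20 groups, and no cause was tested. At the brightest Arnt probe, smoke replicate 2 had a log2 ratio of -0.44, against 0.14 to 0.25 in the other smoke arrays. At Tiparp, room air replicate 2 had -0.50, against -0.89 to -0.84. At Cyp1a1, smoke replicate 3 had 7.05, against 6.10 to 6.37. At Marco, smoke replicate 4 had 4.97, against 5.92 to 6.13. There red, on the log2 scale over the 75th percentile, was 4.94, within the 4.77 to 5.15 of the other smoke arrays. Green stood apart, at -0.34 against -1.78 to -1.50. At Mrc1, smoke replicate 3 had 5.15, against 4.28 to 4.43. At Nfe2l2, room air replicate 1 had 0.93, against 0.60 to 0.69.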

How the results depend on the processing

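Cyp1b1 and Ahrr kept their direction and their call under 20 of 22 alternatives each. The exceptions were the exact Wilcoxon test and the deposited table. The Wilcoxon test left their differences at 3.06 and 1.96 and gave an adjusted p of 0.115 for both, since 5 against 5 arrays cannot go below 0.00794 before adjustment. It called 0 probes and 0 members, against 5448 probes at an unadjusted p under 0.05. The deposited table with its columns as named, an alternative chosen after seeing the data, called 0 probes and 0 members in limma, against 318 at an unadjusted p under 0.05. Its columns carry the scanner values of the other group, whichever naming is right, so its signs were turned. They came to 0.050 at Arnt, 0.070 at Tiparp, -0.019 at Ahr, -1.62 at Ahrr, -1.78 at Cyp1a1 and -1.78 at Cyp1b1. In the lists it gave 1.04 at Bmal1, 0.26 at Clock, -1.97 at Arnt2, -1.46 at Aldh3a1, -1.17 at Nqo1, -0.51 at Gsta1, -0.43 at Gsta2, -0.49 at Ugt1a6b, 0.20 at Ephx2, 0.15 at Hsp90ab1, -0.12 at Slc7a5, -0.12 at Nfe2l2, -0.081 at Ncoa3, -0.054 at Parp16, -0.70 at Ido2, -2.63 at Marco, -1.14 at Cd68, -0.99 at Chil3, -0.67 at Adgre1 and -0.35 at Csf1r. Its values are means of both channels, so their size is not that of a ratio. The count of probes was 5025 with the replicate block, 1759 with red processed signal alone and 1434 with median centring, and the cause was not tested. Median centring turned Ahr to -0.057. Leaving out 1 array gave 2097 to 3665 probes and 2 members each time, 2.95 to 3.13 at Cyp1b1, 1.88 to 2.03 at Ahrr and 0.62 to 1.36 at Cyp1a1. Differences near 0 changed sign in the same way, from -0.0072 to 0.12 at Ahr (-0.0020 without room air 1 and -0.0072 without smoke 2), -0.15 to 0.057 at Arnt (highest without smoke 2), -0.091 to 0.017 at Tiparp (highest without room air 2) and -0.044 to 0.0090 at Cyp1a2 (highest without smoke 3). The gap between Cyp1b1 and Cyp1a1 ran from 1.71 to 2.51, with 2.51 without room air 1. The gap between Cyp1a1 and Cyp1a2 passed in red alone, at 1.90, but Cyp1a2 was well above background on 1 of 10 arrays, so this is not read. Slc7a5 lost its call under 16 of 21 alternatives and Nfe2l2 under 10 of 21. Signal over background limits Cyp1a2, the dimmer Cyp1b1 probe and Arnt2 in room air, Npas2 in smoke, and the green side of Cyp1a1.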
